A study of Bruguiera gymnorhiza with 19 samples.

Results

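The responses of Burma mangrove (*Bruguiera gymnorhiza*) leaves to salt and to osmotic stress were set against each other after 24 h. For every array probe the change in NaCl, NaCl 24 h minus NaCl 0 h, was compared with the change in sorbitol, sorbitol 24 h minus sorbitol 0 h, and the second was subtracted from the first. A positive difference of responses therefore means a higher NaCl response, and a negative one a higher sorbitol response. The comparison takes 12 of the 18 samples of the series, on 13 of its 19 arrays. The NaCl 24 h group had stood in 500 mM NaCl and the sorbitol 24 h group in 1 M sorbitol (written Solbitol in the labels). Leaves of the NaCl 0 h and sorbitol 0 h groups were taken just before treatment, so no agent separates them. All plants were 3 years and 7 months old and raised from seed in vermiculite, and each group held 3 samples, A, B and C, labelled as biological replicates. For NaCl 24 h C, 1 of its labels gives the letter A while its title and another label give C, and it was used as C. The RNA of NaCl 0 h C was read on a repeat array, and both arrays were averaged. Untreated leaves of 24 h were not analysed here. The labels do not say that the replicates were separate plants, so the p-values speak only of the spread between the samples given here.

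Mangroves are halophytes, trees whose roots stand in seawater. NaCl stresses a plant both through its ions, which enter cells and disturb enzymes and ion balance, and through the lowered water potential of the solution. Sorbitol, an uncharged sugar alcohol, lowers the water potential without adding salt ions, and is commonly used beside NaCl to tell ionic from osmotic effects. Plant cells respond to water deficit through the hormone abscisic acid, through compatible solutes and protective proteins, and to sodium through transporters that move it out of the cytosol or into the vacuole. The deposited files pair probes with identifiers and sequences but give no gene names. Probes are therefore named by identifier, no role is given to any of them, and the leaf label could not be checked against marker genes.

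The arrays carried oligonucleotides of 35 to 40 bases, and the last 2 numbers of an identifier are the positions of the probe in its clone or contig. The first sequences shown belong to 5 of the 9 probes with the lowest differences of responses. They overlap: in each, capitals mark a run of 9 bases found in all 5, and linked pairs share runs of 15 to 28 bases. No other mangrove probe on the array shares 15 bases with any of them on the same strand. Bg04-30_K13_568_603 shares such a run with Bg04-25_N23_538_576 only (17 bases). Whether the 5 probes read the same transcripts was not tested, so their readings cannot be taken as independent of each other.
Bg04-30_K13_568_603: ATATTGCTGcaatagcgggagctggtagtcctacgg
Bg04-03_O04_548_586: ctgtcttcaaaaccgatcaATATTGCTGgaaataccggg
Bg03-05_F14_546_580: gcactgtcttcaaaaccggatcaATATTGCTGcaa
Bg03-08_B06_540_576: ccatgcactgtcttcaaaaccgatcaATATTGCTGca
Bg04-25_N23_538_576: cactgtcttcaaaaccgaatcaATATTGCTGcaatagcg

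The next 6 sequences are those of single probes that carry the other main patterns: a large rise in sorbitol outside that set, the highest difference, a fall in sorbitol with little spread between samples, a rise in NaCl, opposite changes, and the largest fall in NaCl among the called probes. No part is marked in them, since none shares 20 or more consecutive bases with another mangrove probe.
Bg04-21_I17_25_59: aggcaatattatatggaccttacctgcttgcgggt
CL192Contig1_771_805: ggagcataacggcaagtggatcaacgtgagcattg
CL1273Contig1_337_371: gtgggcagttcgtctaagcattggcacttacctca
Bg01-06_F05_321_355: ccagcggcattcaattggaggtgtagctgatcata
Bg01-02_M23_150_184: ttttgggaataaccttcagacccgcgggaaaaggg
Bg04-20_E09_129_163: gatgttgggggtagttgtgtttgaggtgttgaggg

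Between 6371 and 7408 mangrove probes per sample lay above the negative control spots of their array, and 8655 probes were tested. The median probe intensity of the 13 arrays ran from 75.25 to 796. On 2 of them, sorbitol 24 h C and sorbitol 0 h C, it was 84.3 or below, against 319 or above on the other 11. On sorbitol 24 h C 373 tested probes (4.31%) had an intensity of 0, and on sorbitol 0 h C 153 (1.77%). Such spots all sit at the same normalized log2 value, 6.88 on sorbitol 24 h C and 6.80 on sorbitol 0 h C, and have no order among themselves. All levels given here are normalized log2 intensities, so a step of 1 is a 2-fold change. A group in which no sample exceeded the negative controls has only an upper limit there. Folds against such a group are written "at least". There the brighter mean was divided by that of the dim group, after each dim array had been raised, where needed, to the lowest value that any detected probe had on it. A p-value printed beside such a fold belongs to the fitted change between the groups, and the limit itself was not tested.

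The probes whose responses differed at 24 h had mostly a called change in sorbitol and no called change in NaCl. Of 8655 probes, 176 (2.03%) had a difference of responses past the threshold (limma, Benjamini-Hochberg adjusted p under 0.05), 111 with a lower and 65 (36.9%) with a higher NaCl response (25.0% higher among 72 calls with median scaling in place of quantile normalization), and 1525 had an unadjusted p under 0.05. The differences ran from -5.95 to 4.75 on the log2 scale, against a median of 0.02 over all probes tested, and each of the 176 was at least 1 in size. Among these 176 the NaCl change itself was called in 44 (background 3.92%) and the sorbitol change in 127 (background 9.50%), 8 of them in both. These shares describe the members and are no separate evidence, because both changes are parts of the difference that selected them. All samples of NaCl 24 h lay above or below all samples of sorbitol 24 h for 164 of the 176 (background 33.5%). In the direct comparison of NaCl 24 h with sorbitol 24 h, 151 were called (background 10.1%), 92 lower and 59 higher in NaCl. These 24 h samples are also part of the selecting difference, so neither share is separate evidence. In whole leaves, more transcript per cell and more cells that carry it cannot be told apart.

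**Figure D1:**
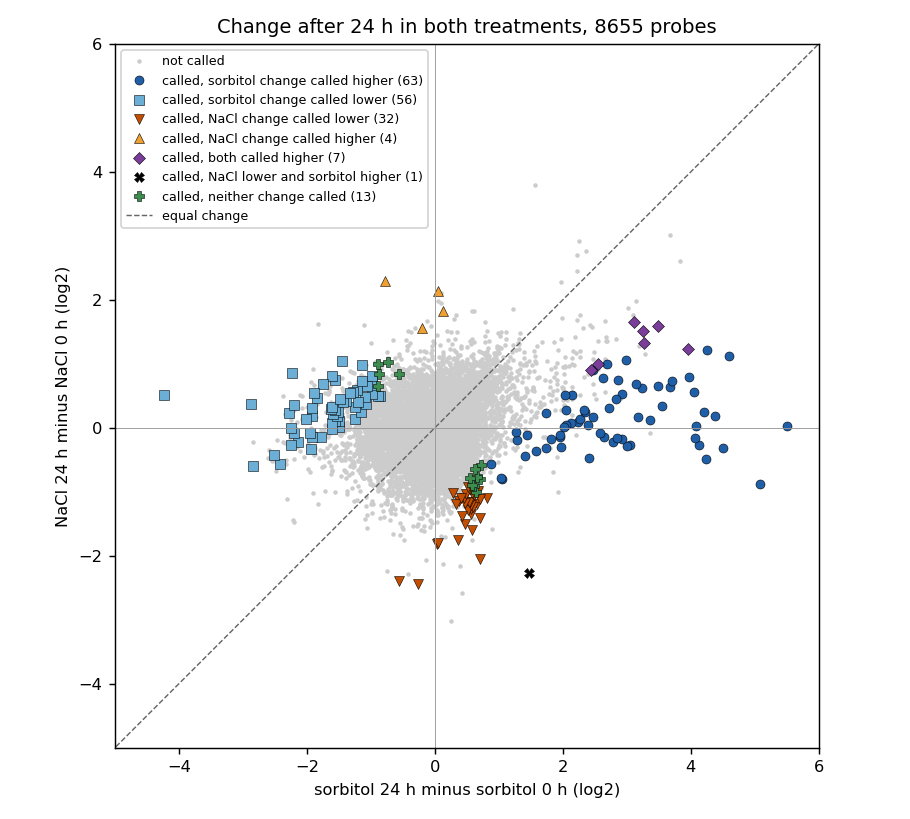
Change over 24 h in NaCl (vertical axis, log2) against the change in sorbitol (horizontal axis, log2) for the 8655 probes, with the 176 called probes marked by which of the changes was called and the dashed line at equal change. The largest groups are 63 probes higher in sorbitol, on the right near 0 in NaCl, and 56 lower in sorbitol, on the left.

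The 2 arrays of low signal bear on these counts. Without them and the 2 low-signal arrays at 6 h, 93 probes were called, 84 of them shared with the 176 in the same direction. All 176 kept the sign of their difference. Leaving out 1 sample at a time gave 72 calls for NaCl 0 h B, 86 for sorbitol 24 h B, 87 for NaCl 24 h B, 98 for sorbitol 0 h A, 105 for NaCl 24 h A, 108 for sorbitol 0 h B and 268 for sorbitol 24 h A.

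The largest class held 63 probes that rose in sorbitol and whose NaCl change was not called. Their median change was 0.08 in NaCl and 2.69 in sorbitol, against medians of 0.03 and 0.02 over all probes tested. The sorbitol changes ran from 0.88 to 5.51. The NaCl changes of the same probes ran from -0.87 to 1.21. For all 63, every NaCl 24 h sample lay below every sorbitol 24 h sample (background 16.3%), but these samples are part of what selected the probes. In 25 of the 63 no NaCl 24 h sample exceeded the negative controls (995 of all 8655 tested), and in 26 no sorbitol 0 h sample did (1047 of 8655). A probe dim in these groups is tested only if it is detected elsewhere, so these counts follow in part from the choice. Without the low-signal arrays, 43 of the 63 were called.

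The 5 overlapping probes shown first belong to this class. Bg04-30_K13_568_603 read 6.15, 5.94 and 6.64 in NaCl 24 h A, B and C and 7.13, 7.26 and 6.95 in NaCl 0 h, none of them above the negative controls. In sorbitol 24 h it read 11.74, 13.22 and 13.62, against 7.01, 7.98 and 8.34 in sorbitol 0 h, where it was again not above the controls. Only the sorbitol 24 h samples therefore stood out among these 12, and they did not overlap any other group. The level in sorbitol 24 h was at least 23.9-fold above NaCl 24 h (limma adjusted p = 6.82e-09) and at least 23.0-fold above sorbitol 0 h (limma adjusted p = 1.78e-07). Its fitted difference of responses, the lowest of all, was -5.95 (SE 0.62, limma adjusted p = 1.55e-05), no exact size since 3 groups were below the controls.

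The other 4 of the set followed the same pattern. Their differences were -4.82 for Bg04-03_O04_548_586, -4.40 for Bg03-05_F14_546_580, -4.23 for Bg03-08_B06_540_576 and -3.96 for Bg04-25_N23_538_576. Across all 5 probes the samples read 5.94 to 8.74 in NaCl 24 h and 6.69 to 8.96 in NaCl 0 h, which overlap. The same probes read 11.60 to 13.69 in sorbitol 24 h, against 7.01 to 9.33 in sorbitol 0 h, so the sorbitol 24 h samples lay above all others. The highest adjusted p of the 5 differences was 0.00148 (limma). In each of them sorbitol 24 h A was the lowest of the 3 treated samples. Bg03-08_B06_540_576 also exceeded the controls without treatment, in all NaCl 0 h samples (8.65 ± 0.38) and all sorbitol 0 h samples (9.02 ± 0.51; SD, n = 3 each). In NaCl 24 h it exceeded them in B and C but not in A.

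Bg04-21_I17_25_59 rose in sorbitol by an amount that depends on how its spots are read. It read 8.93, 8.76 and 8.59 in NaCl 24 h and 8.99, 8.16 and 9.01 in NaCl 0 h. The sorbitol 24 h samples read 14.93, 13.86 and 14.61, against 9.06, 8.72 and 9.10 in sorbitol 0 h. The sorbitol 24 h samples were more than 4 log2 units above every other sample, and the remaining groups overlapped. These levels rest on the foreground mean of each spot, and give a rise in sorbitol of 5.51 (SE 0.29), a change in NaCl of 0.04 (SE 0.29) and a difference of -5.47 (SE 0.42, limma adjusted p = 1.62e-07). On sorbitol 24 h B and C, however, the foreground mean of this spot was 4.10 and 6.70 times its foreground median, so the pixels of these spots were uneven in brightness. With foreground medians in place of means the rise in sorbitol was 3.97 (14th highest of all probes, where it is the highest with means) and the difference -3.88 (limma adjusted p = 0.00827). The size of this rise is therefore uncertain by about 3-fold. Its difference was not called with the authors' deposited table (-3.65, limma adjusted p = 0.354), where only 3 of the 176 were called. Among the 176, 4 probes (2.27%) had a detected spot with a mean over 2 times its median, against 3.77% of all tested, and the only other one named is Bg02-08_I11_88_122, on NaCl 24 h C. At 6 h Bg04-21_I17_25_59 had read 9.60 ± 0.33 in NaCl and 9.07 ± 0.17 in sorbitol (SD, n = 3 each), so its rise in sorbitol came after 6 h.

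CL38Contig1_682_716 and CL1389Contig1_154_193 were above the negative controls in sorbitol 24 h only, among these 4 groups. CL38Contig1_682_716 read 6.92, 6.22 and 6.82 in NaCl 24 h and 11.09, 12.22 and 12.86 in sorbitol 24 h, with sorbitol at least 13.7-fold above NaCl (limma adjusted p = 1.66e-07). CL1389Contig1_154_193 read 6.25, 7.55 and 7.08 in NaCl 24 h and 11.01, 11.08 and 11.15 in sorbitol 24 h, with sorbitol at least 6.95-fold above NaCl (limma adjusted p = 1.80e-07). Its sorbitol samples were close together, whereas those of CL38Contig1_682_716 spread over almost 2 log2 units. The fitted differences of responses were -4.73 and -4.19. The spot of CL1389Contig1_154_193 was at an intensity of 0 on sorbitol 0 h C.

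Bg04-22_L19_257_291 was detected in all NaCl samples, at 24 h and at 0 h. It averaged 8.82 ± 0.13 in NaCl 24 h and 8.78 ± 0.34 in NaCl 0 h, and 12.04 ± 0.32 in sorbitol 24 h and 7.96 ± 0.34 in sorbitol 0 h (SD, n = 3 each). The difference was -4.05 (SE 0.40, limma adjusted p = 7.63e-06). Bg04-09_H20_258_292, with a difference of -3.48, averaged 7.91 ± 0.69 in NaCl 24 h and 11.57 ± 0.27 in sorbitol 24 h. CL943Contig1_42_76, with a difference of -3.47, averaged 8.90 ± 0.77 in NaCl 24 h and 7.78 ± 0.06 in NaCl 0 h, and 11.94 ± 0.32 in sorbitol 24 h. Its sorbitol level was at least 12.2-fold above sorbitol 0 h, where no sample exceeded the controls. Both of these spots were at 0 on sorbitol 0 h C, and without the low-signal arrays their differences were -3.02 and -3.23 and still called.

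**Figure D2:**
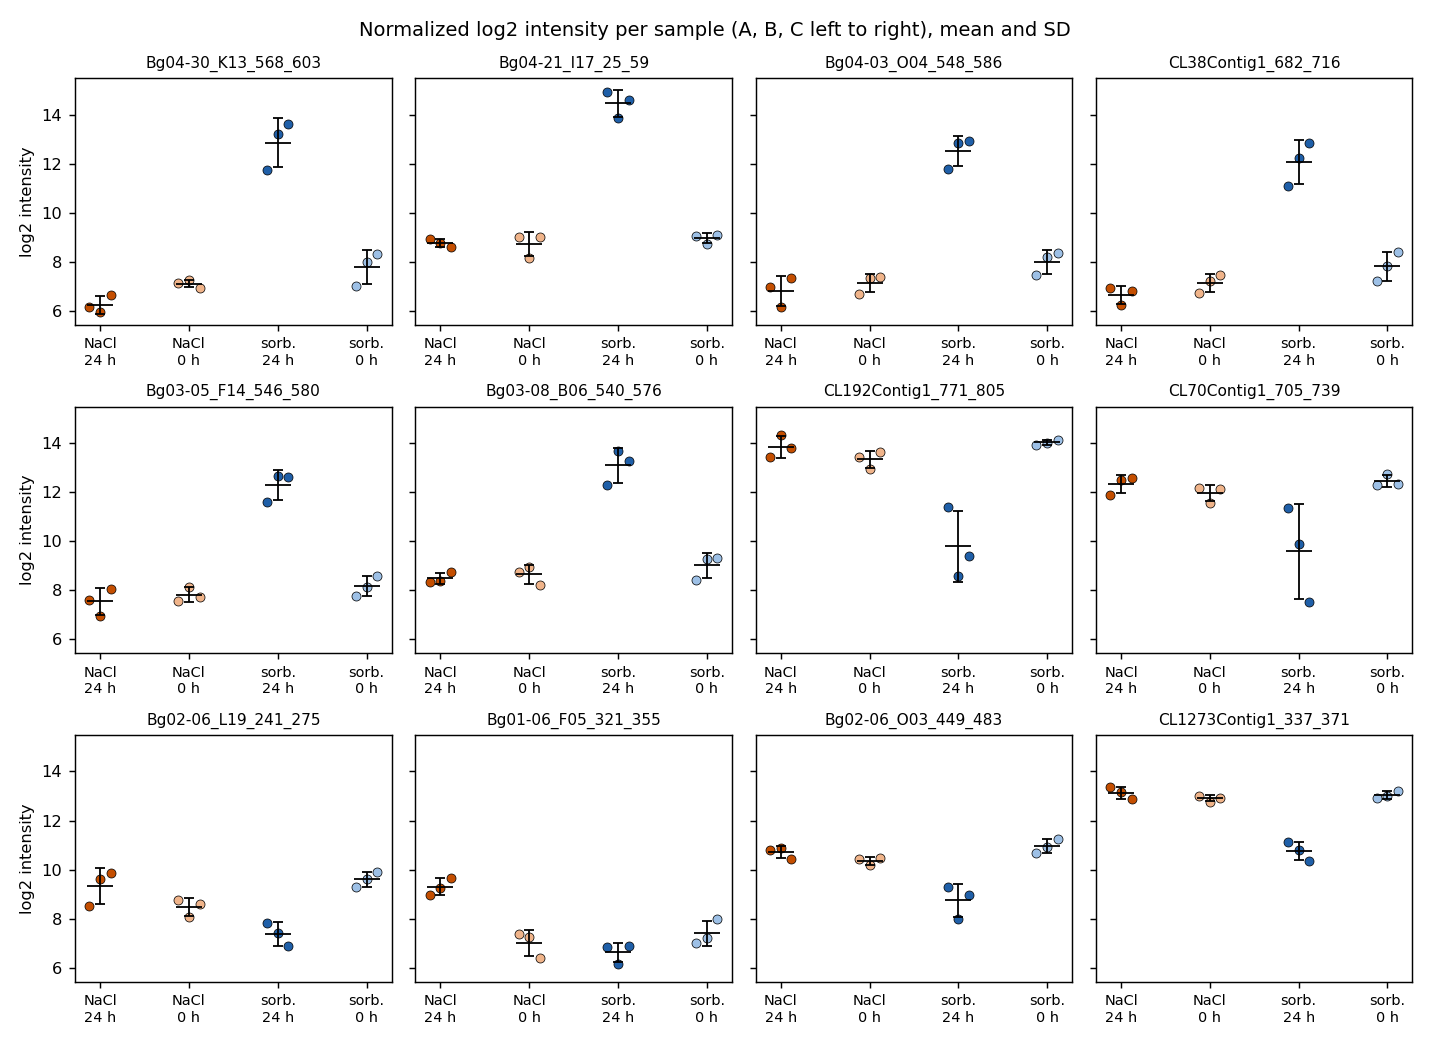
Normalized log2 intensity of 12 probes in each sample of NaCl 24 h, NaCl 0 h, sorbitol 24 h and sorbitol 0 h, with points for samples A, B and C, bars for the mean and whiskers for the SD (n = 3). The first 6 panels show the lowest differences of responses, where the sorbitol 24 h samples lie above the rest. The other 6 show the highest differences, where in 5 panels they lie below and in Bg01-06_F05_321_355 the NaCl 24 h samples lie above.

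The second class held 56 probes that fell in sorbitol and whose NaCl change was not called. The median change was 0.33 in NaCl and -1.57 in sorbitol, with sorbitol changes from -4.24 to -0.86. Of the 56, 34 were detected in all 12 samples (4616 of all 8655 tested), and in 9 no sorbitol 24 h sample exceeded the negative controls (856 of 8655). The NaCl 24 h samples all lay above the sorbitol 24 h samples in 55 (background 17.2%), and 52 were called higher in that direct comparison (background 5.06%), which again shares its samples with the selecting difference. Without the low-signal arrays, 22 of the 56 were called.

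CL192Contig1_771_805 had the highest difference of all, 4.75 (95% interval 3.35 to 6.15, limma adjusted p = 0.000461). It read 13.42, 14.31 and 13.81 in NaCl 24 h and 13.42, 12.95 and 13.63 in NaCl 0 h. Its sorbitol 24 h values were 11.40, 8.56 and 9.39, against 13.94, 14.02 and 14.11 in sorbitol 0 h. All 3 sorbitol 24 h samples were below every other sample, and they differed among themselves by more than 2 log2 units. The fall in sorbitol was -4.24 (SE 0.48) and the NaCl change 0.52 (SE 0.48, not called). At 6 h the mean was 13.37 in NaCl and 12.17 in sorbitol.

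CL70Contig1_705_739 came second with a difference of 3.25 (SE 0.80, limma adjusted p = 0.0364). It read 11.90, 12.50 and 12.58 in NaCl 24 h and 12.17, 11.57 and 12.11 in NaCl 0 h. The sorbitol 24 h samples read 11.34, 9.88 and 7.52, against 12.28, 12.72 and 12.34 in sorbitol 0 h. The treated sorbitol samples spread over almost 4 log2 units, and the lowest was not above the negative controls. That lowest sample is on a low-signal array, and without these arrays the difference was 2.27 (limma adjusted p = 0.0611). The call was lost in 16 of the 30 other settings that tested it.

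CL1273Contig1_337_371 changed with little spread. It read 13.36, 13.15 and 12.87 in NaCl 24 h and 13.02, 12.77 and 12.92 in NaCl 0 h. Its sorbitol 24 h values were 11.12, 10.79 and 10.36, against 12.90, 12.98 and 13.22 in sorbitol 0 h. Only the sorbitol 24 h samples stood apart, and all were lower. The difference was 2.50 (SE 0.41, limma adjusted p = 0.00182), and NaCl 24 h was 5.18-fold above sorbitol 24 h. Bg01-07_B02_289_323 averaged 14.32 ± 0.29 in NaCl 24 h and 12.31 ± 0.49 in sorbitol 24 h (SD, n = 3 each), with a difference of 2.43 (limma adjusted p = 0.00243). CL914Contig1_321_355 averaged 12.38 ± 0.75 in NaCl 24 h and 9.76 ± 0.13 in sorbitol 24 h, with a difference of 2.42 (limma adjusted p = 0.0106).

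Bg02-06_O03_449_483 had a difference of 2.57 (SE 0.43, limma adjusted p = 0.00192). It averaged 10.72 ± 0.24 in NaCl 24 h and 10.36 ± 0.17 in NaCl 0 h, and 8.74 ± 0.67 in sorbitol 24 h and 10.95 ± 0.29 in sorbitol 0 h (SD, n = 3 each). Bg02-06_L19_241_275 had one of 3.09 (SE 0.67, limma adjusted p = 0.0173) and was not above the controls in any sorbitol 24 h sample. In NaCl 24 h it was at least 2.22-fold higher than in sorbitol 24 h. The remaining probes of this class among the highest 12 were Bg04-12_B23_380_415 (2.48), Bg01-08_A16_520_555 (2.44), Bg03-10_E23_433_467 (2.30) and Bg05-10_F10_309_343 (2.30). The spots of Bg02-06_L19_241_275 and of the first 3 of these were at an intensity of 0 on sorbitol 24 h C. Without the low-signal arrays the difference of Bg02-06_L19_241_275 was 2.69 and still called. That of Bg04-12_B23_380_415 was 1.86 and called, whereas Bg01-08_A16_520_555 (1.99) and Bg03-10_E23_433_467 (1.76) were not (limma adjusted p = 0.0615 and 0.0938).

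The third class held 32 probes that fell in NaCl and whose sorbitol change was not called. Their median change was -1.19 in NaCl and 0.52 in sorbitol, against 0.03 and 0.02 over all probes, and the differences ran from -2.75 to -1.31. At 24 h the NaCl level was below the sorbitol level by a median of 0.94, and 19 of the 32 were called lower in that comparison (background 5.06%), whose samples are part of the selecting difference. At 0 h, before any treatment, the NaCl group was higher than the sorbitol group for all 32, by a median of 0.82, and 7 of the 32 were called there (background 0.809%). For 26 of the 32 every NaCl 0 h sample lay above every sorbitol 0 h sample (background 9.76%). The NaCl 0 h values are part of what defines this class, so a high level there is in part a product of the choice. With both 0 h groups pooled as 1 control, that control cancels, and the fit compares NaCl 24 h with sorbitol 24 h once more. There 12 of the 32 were called, beside 61 of the 63 that rose in sorbitol and 49 of the 56 that fell in sorbitol. These 24 h samples are part of what selected the classes. Of the 32, 13 were called without the low-signal arrays. With 1 sample left out, 10 to 31 were called. The lowest count, 10, came without NaCl 0 h B, NaCl 24 h B, sorbitol 24 h B or sorbitol 0 h A, and the highest without sorbitol 24 h A.

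**Figure D3:**
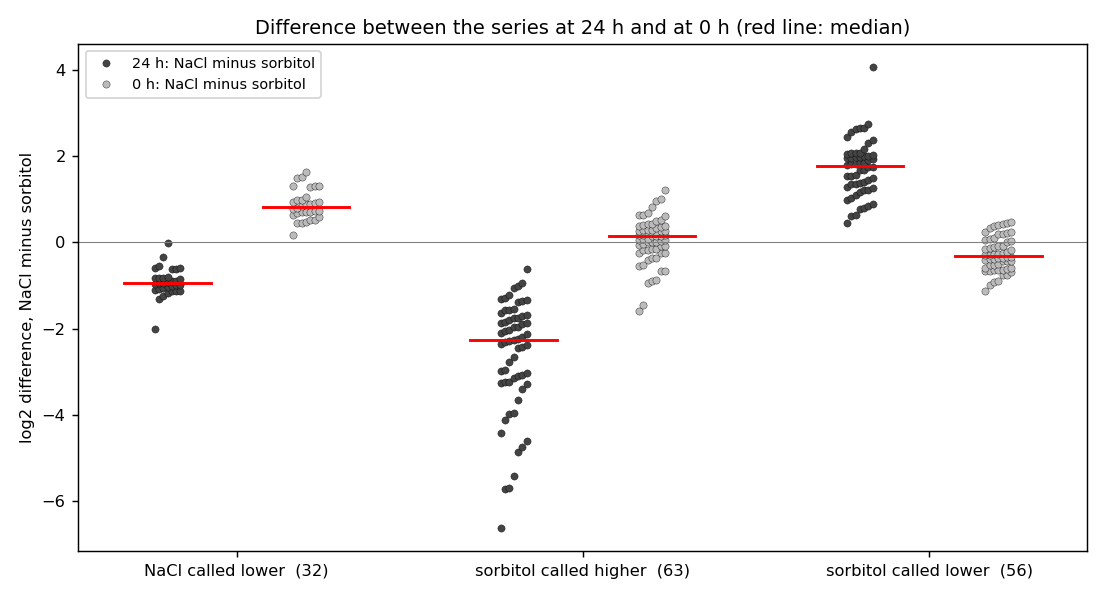
NaCl minus sorbitol (log2) at 24 h (dark points) and at 0 h (light points) for the probes of 3 classes, 1 point a probe, with red lines at the medians. For the probes that fell in NaCl the median was -0.94 at 24 h and 0.82 at 0 h. Medians were -2.27 at 24 h and 0.15 at 0 h for those higher in sorbitol, and 1.78 at 24 h and -0.30 at 0 h for those lower in sorbitol.

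Bg04-20_E09_129_163 had the largest NaCl fall of this class. It read 8.63, 9.33 and 8.59 in NaCl 24 h and 10.55, 11.69 and 11.65 in NaCl 0 h. The sorbitol 24 h samples read 11.07, 11.07 and 10.45, against 10.85, 11.24 and 11.28 in sorbitol 0 h. The NaCl 24 h samples were below all others, while the other 3 groups overlapped, so for this probe the untreated groups did not stand apart. The NaCl change was -2.45 (SE 0.36, limma adjusted p = 0.000919) and the sorbitol change -0.26 (SE 0.36). Its difference was -2.19 (SE 0.52, limma adjusted p = 0.0294). The call held without the low-signal arrays (limma adjusted p = 0.0241) and was lost without any 1 of NaCl 24 h A, NaCl 24 h C, NaCl 0 h B, NaCl 0 h C, sorbitol 24 h B, sorbitol 0 h A and sorbitol 0 h B.

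Bg05-25_P04_73_107 had the largest difference of the class, -2.75 (SE 0.54, limma adjusted p = 0.00765), on another basis. It averaged 10.23 ± 0.57 in NaCl 24 h and 12.28 ± 0.62 in NaCl 0 h, and 11.36 ± 0.64 in sorbitol 24 h and 10.66 ± 0.24 in sorbitol 0 h (SD, n = 3 each). The NaCl 0 h samples were above every sample of the other groups, and at 24 h the groups overlapped. The untreated groups differed by 1.62 (limma adjusted p = 0.0453). With both pooled their level cancels, and what is left, NaCl 24 h minus sorbitol 24 h, was -1.13 and not called. Bg04-15_G14_325_359 had the smallest difference between treated leaves in the class, with NaCl minus sorbitol at -0.02 at 24 h and 1.29 at 0 h (limma adjusted p = 0.963 and 0.00495).

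A few probes rose in NaCl. In 4 the NaCl change was called higher and the sorbitol change was not called. Bg01-06_F05_321_355 read 8.98, 9.25 and 9.68 in NaCl 24 h and 7.39, 7.25 and 6.40 in NaCl 0 h. Its sorbitol 24 h values were 6.83, 6.17 and 6.88, against 7.02, 7.22 and 7.97 in sorbitol 0 h. The NaCl 24 h samples were the only ones above the negative controls among these 12, at least 2.31-fold above NaCl 0 h and at least 2.16-fold above sorbitol 24 h (limma adjusted p = 0.000678 and 1.44e-05). The fitted difference was 3.07 (SE 0.46, limma adjusted p = 0.000755), no exact size for that reason, and it was 2.91 without the low-signal arrays. The spot was at 0 on sorbitol 24 h C.

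CL607Contig1_1017_1051 was likewise detected in all NaCl 24 h samples and in none of the other 3 groups. It averaged 9.61 ± 0.28 in NaCl 24 h and 7.48 ± 0.61 in NaCl 0 h, and 7.63 ± 0.31 in sorbitol 24 h and 7.58 ± 0.40 in sorbitol 0 h (SD, n = 3 each), with a difference of 2.08 (limma adjusted p = 0.0144). NaCl 24 h was at least 2.86-fold above NaCl 0 h. The remaining members of this small class are named because it has only 4 probes, after their values were seen. Bg05-07_J04_471_505 was detected in all 12 samples, at 11.54, 11.75 and 12.41 in NaCl 24 h and 10.34, 9.86 and 10.03 in NaCl 0 h, and at 10.20 ± 0.19 in sorbitol 24 h and 10.07 ± 0.40 in sorbitol 0 h (SD, n = 3 each). It rose 3.54-fold in NaCl (limma adjusted p = 0.000919), with a difference of 1.70. Bg05-07_H23_33_67, detected in NaCl 24 h only among the 4 groups, had a difference of 1.77 and was at least 1.75-fold above NaCl 0 h. Its NaCl rise was already called at 6 h (limma adjusted p = 0.00180). When the low-signal arrays were left out 2 of the 4 were called, Bg01-06_F05_321_355 and CL607Contig1_1017_1051.

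Bg01-02_M23_150_184 was the 1 probe called in opposite directions. It read 7.30, 6.44 and 6.74 in NaCl 24 h and 9.50, 8.81 and 8.98 in NaCl 0 h. The sorbitol 24 h samples read 9.61, 9.11 and 9.19, against 8.03, 7.74 and 7.70 in sorbitol 0 h. It was above the controls in all samples of NaCl 0 h and sorbitol 24 h, and in none of NaCl 24 h and sorbitol 0 h. Its level in NaCl 24 h was at least 1.76-fold below NaCl 0 h (limma adjusted p = 0.00868), and in sorbitol 24 h at least 1.96-fold above sorbitol 0 h (limma adjusted p = 0.0353). The fitted difference was -3.75 (SE 0.62, limma adjusted p = 0.00182). The NaCl 0 h samples lay above the sorbitol 0 h samples here too, by a mean of 1.28 that was not called.

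In 7 probes both treatments raised the level and sorbitol raised it further. Their median change was 1.33 in NaCl and 3.25 in sorbitol. Bg04-16_E20_55_91 read 11.95, 12.02 and 12.45 in NaCl 24 h and 10.55, 10.81 and 11.07 in NaCl 0 h. Its sorbitol 24 h values were 14.54, 14.23 and 14.21, against 11.01, 11.23 and 10.93 in sorbitol 0 h. Both treated groups stood above their own 0 h group without overlap, and the sorbitol one was highest. The rises were 2.51-fold in NaCl and 9.62-fold in sorbitol, with a difference of -1.94 (SE 0.40, limma adjusted p = 0.0125). Bg05-25_J09_577_611, not above the controls at 0 h in either series, averaged 8.74 ± 0.35 in NaCl 24 h and 11.57 ± 0.38 in sorbitol 24 h (SD, n = 3 each), at least 1.54-fold above its 0 h group in NaCl and at least 9.45-fold above it in sorbitol. Without the low-signal arrays 2 of the 7 were called.

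For 13 of the 176 neither change was called by itself and both were moderate, with opposite signs in all 13. Bg02-08_I11_88_122 had the highest of these differences, 1.88 (SE 0.44, limma adjusted p = 0.0295), from a NaCl change of 0.99 and a sorbitol change of -0.89. On NaCl 24 h C, however, the foreground mean of this spot was 2.34 times its foreground median. With foreground medians in place of means the NaCl change was 0.53 and the difference 1.36, still called (limma adjusted p = 0.0300). The difference was 1.78 and not called when the low-signal arrays were left out. Its call was lost in 12 of 31 other settings, 1 of which dropped the repeat array of NaCl 0 h C. For all 13, the samples of NaCl 0 h and sorbitol 0 h did not overlap (background 18.9%), and these 0 h values are part of the difference that selected them. Without the low-signal arrays 1 of the 13 was called.

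Few of the differences called at 24 h were already called at 6 h. At 6 h, 25 probes of 8655 had a difference of responses past the threshold (0.289%), 12 of them among the 176. The 6 h and 24 h differences share both 0 h groups, so their likeness is not independent. Of the 63 probes higher in sorbitol at 24 h, 22 were already called higher in sorbitol at 6 h (background 1.76%), and the median sorbitol change was 0.97 at 6 h and 2.69 at 24 h. Of the 56 lower in sorbitol, 11 were called lower at 6 h (background 1.37%), with medians of -0.47 at 6 h and -1.57 at 24 h. Of the 32 lower in NaCl, 23 were called lower at 6 h (background 7.61%), with medians of -1.09 at 6 h and -1.19 at 24 h. The 6 h and 24 h changes of a series subtract the same 0 h group, and for the 32 probes that group, NaCl 0 h, was above sorbitol 0 h throughout, so the like sizes of their falls at 6 h and 24 h do not date them.

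**Figure D4:**
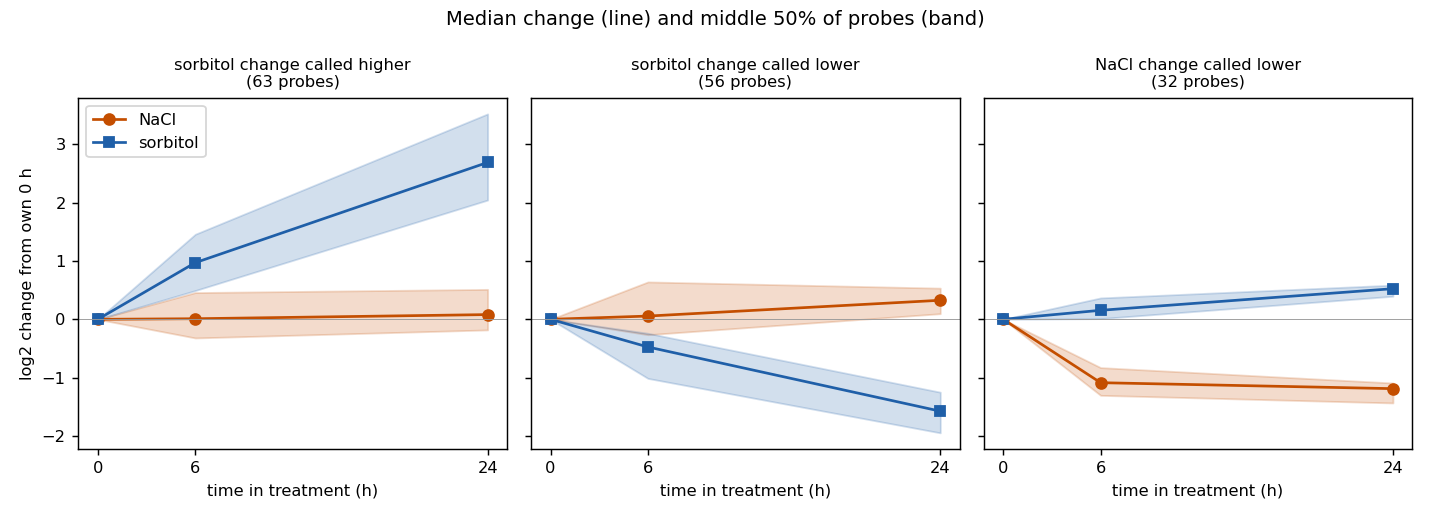
Median log2 change from the series' own 0 h group (lines) with the middle 50% of probes (bands) at 0, 6 and 24 h, in NaCl and in sorbitol, for 3 classes. Sorbitol medians of the first 2 panels are 0.97 and -0.47 at 6 h and 2.69 and -1.57 at 24 h, and the NaCl median of the last is -1.09 at 6 h and -1.19 at 24 h.

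The change between times was tested by subtracting the 6 h difference from the 24 h one, which cancels the 0 h groups. By this test 56 probes of 8655 moved (0.647%), and 29 of them were among the 176, 23 lower and 6 higher. By class these were 19 of the 63 higher in sorbitol, 5 of the 56 lower in sorbitol and 2 of the 32 lower in NaCl, with the 24 h samples again part of what selected the probes. Bg04-21_I17_25_59 moved by -6.23 on foreground means (SE 0.42, limma adjusted p = 1.42e-08). Of the 5 overlapping probes 4 were called, with shifts from -4.36 to -3.19, while Bg03-08_B06_540_576 shifted by -2.34 (limma adjusted p = 0.0706). Their sorbitol changes at 6 h were 1.07 to 1.29, and none was called then. Bg04-20_E09_129_163 was called as well, at -3.00 (limma adjusted p = 0.0101). It had stood at 11.22 ± 0.37 in NaCl 6 h (SD, n = 3), close to its NaCl 0 h level, against a NaCl 24 h level of 8.85 ± 0.42. Bg01-06_F05_321_355 shifted by 2.16 (limma adjusted p = 0.0348), as its NaCl mean was 7.64 at 6 h and 9.30 at 24 h.

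For the 12 probes called at both 6 h and 24 h, both differences subtract the same 0 h groups. A call at both times therefore does not by itself date a response. CL1079Contig1_440_479 was not above the controls in NaCl at 0, 6 or 24 h, nor in sorbitol 0 h, where its spot on sorbitol 0 h C was at an intensity of 0. In sorbitol it read 10.90, 10.80 and 11.74 at 6 h and 9.90, 11.11 and 10.91 at 24 h, with overlapping samples. Its level at 24 h was at least 5.13-fold above NaCl 24 h (limma adjusted p = 2.59e-05) and its fitted difference -3.03 (SE 0.53, limma adjusted p = 0.00319). Bg04-17_B15_512_550 averaged 8.72 ± 0.30 in NaCl 6 h and 12.08 ± 0.19 in sorbitol 6 h, and 9.79 ± 0.74 in NaCl 24 h and 13.03 ± 0.67 in sorbitol 24 h (SD, n = 3 each). Its difference was -3.29 at 6 h (limma adjusted p = 0.00527) and -3.17 at 24 h (limma adjusted p = 0.00148). Bg01-04_G02_513_547 had differences of 2.96 at 6 h and 1.76 at 24 h (limma adjusted p = 0.00527 and 0.0494), and the second was lost in 20 of 31 other settings.

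The other 9 of these 12 had differences at 24 h of -2.66 (Bg04-04_L05_321_355), -2.12 (Bg04-13_H09_585_619), -2.10 (CL372Contig1_499_533), -1.95 (Bg02-10_E22_336_373), -1.85 (Bg01-01_I18_161_195), -1.77 (Bg04-16_L08_211_245), -1.55 (Bg04-24_G04_390_424), -1.31 (Bg04-15_G14_325_359) and 1.61 (CL140Contig1_674_708). None of the 12 was called in the test between times, where their shifts ran from -1.20 to 1.23. CL372Contig1_499_533 stood at 11.84 ± 0.12 in NaCl 24 h and 13.52 ± 0.32 in sorbitol 24 h (SD, n = 3 each), with no overlap. Of the 12, 4 belong to the class that fell in NaCl, all with a higher level in NaCl 0 h than in sorbitol 0 h. Leaving out the low-signal arrays ended the 24 h call of 5 of the 12: Bg04-13_H09_585_619, Bg02-10_E22_336_373, Bg04-24_G04_390_424, Bg04-15_G14_325_359 and CL140Contig1_674_708.

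The identifiers fall into contigs (CL) and 5 series of clones (Bg01 to Bg05), and the classes drew on them unequally. Contigs made up 18 of the 63 probes higher in sorbitol, 18 of the 56 lower in sorbitol and 1 of the 32 lower in NaCl, against 11.9% of all probes tested. Bg04 identifiers made up 23, 4 and 18 of these classes in the same order, against 34.6% of all tested. No 2 called probes came from the same contig or clone. The share of G and C bases had a median of 48.6% among the 176 and among all tested. The sources used here do not say what the Bg numbers stand for, and no test was made of these shares.

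**Figure D5:**
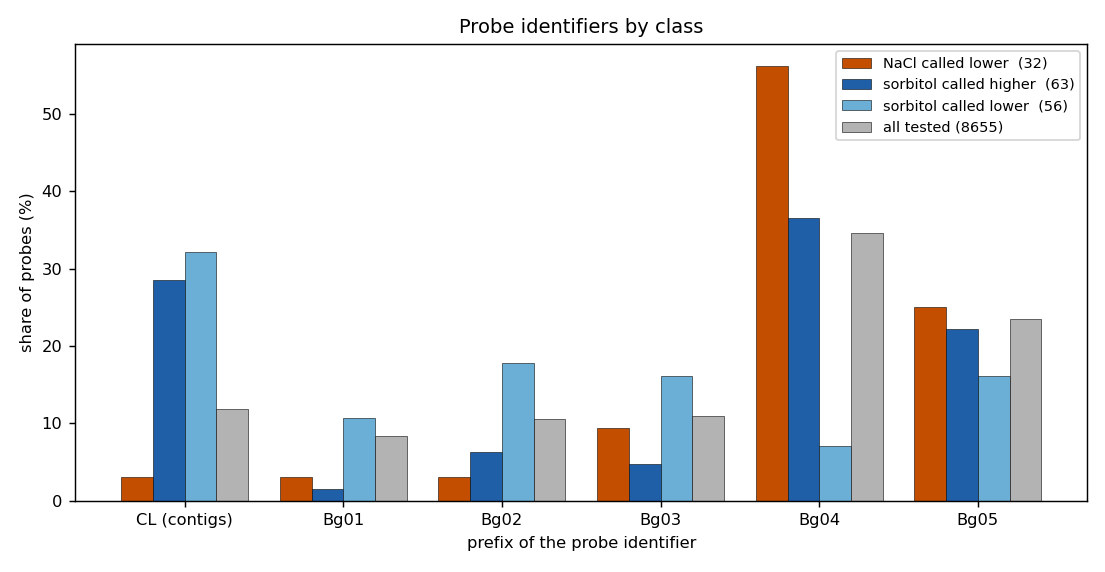
Share of probes (%) by prefix of the identifier for 3 classes of called probes and for all 8655 tested. Bg04 holds 18 of the 32 probes lower in NaCl and 4 of the 56 lower in sorbitol, and contigs hold 18 of the 63 higher in sorbitol and 18 of the 56 lower in sorbitol.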

How the data were processed

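Cy5-labelled cRNA from leaf total RNA was hybridised to 1-colour oligonucleotide arrays, per the labels' protocols. The deposited scanner files give foreground mean and median intensity per spot on a linear scale, per the file headers, with no local background. The authors' deposited table holds intensity values that look quantile-normalized, except the columns of sorbitol 24 h B, sorbitol 24 h C and the repeat array, which hold foreground medians as scanned. The scanner and the authors' software are not given in the sources used here. Each array had 12544 spots, 11997 of them mangrove probes and 70 negative controls. Signals ran up to a ceiling of 65535, which none of the 176 called probes reached.

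Foreground means were corrected with normexp (offset 50), log2 transformed and quantile-normalized over all 19 arrays. On 4 arrays with 2126 to 3216 probes at 0 (NaCl 6 h C and sorbitol 0 h C, 6 h C and 24 h C; at most 82 on the others) normexp failed, and the foreground plus 50 was used. Excluded spots (at most 11 per array) were left out, which dropped 1 sample for 1 called probe, Bg01-05_H23_183_219. A probe counted as detected on an array when its foreground mean was above 95% of the negative control spots there, for NaCl 0 h C on either array, and was tested if detected in at least 3 of 18 samples. That gave 8655 probes, 1031 from contigs and 7624 with Bg identifiers.

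All 18 samples entered 1 limma model of 6 group means (lmFit, eBayes, 12 residual degrees of freedom), with Benjamini-Hochberg adjustment per comparison and calls at an adjusted p under 0.05. Classes follow which of the NaCl and sorbitol changes were called. Named were the 12 highest and 12 lowest differences among called probes detected in all 3 samples of 1 of the 4 groups, the 2 largest per class, called probes sharing 20 bases or a contig, and those also called at 6 h, 42 in all. The members, lists and settings were chosen with earlier results of these data known. The test between times, the 6 h changes, the evenness of spots and the shared run of 15 bases were added after seeing the data. The letters A, B and C were not taken to pair the samples. The model was tested on simulated data with independent noise and shifts in NaCl 24 h only. That simulation had no low-signal arrays, so it does not speak to their effect on the calls. R 4.3.3, limma 3.58.1, Python 3.11.15 and matplotlib 3.10.9 were used. The alternatives covered background correction, normalization, filters, the spread, the replicate letter as a block, pooled controls, low-signal arrays, the threshold and each sample left out.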

Additional observations from a re-analysis of the deposited data

Results flagged for a closer look

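The difference of responses at 24 h is itself a test of whether the change in NaCl differs from that in sorbitol, and 176 probes passed it. The 12 probes with the highest NaCl response relative to sorbitol had differences of 4.75 (CL192Contig1_771_805), 3.25 (CL70Contig1_705_739), 3.09 (Bg02-06_L19_241_275), 3.07 (Bg01-06_F05_321_355), 2.57 (Bg02-06_O03_449_483), 2.50 (CL1273Contig1_337_371), 2.48 (Bg04-12_B23_380_415), 2.44 (Bg01-08_A16_520_555), 2.43 (Bg01-07_B02_289_323), 2.42 (CL914Contig1_321_355), 2.30 (Bg03-10_E23_433_467) and 2.30 (Bg05-10_F10_309_343) on the log2 scale.

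The 12 with the lowest had differences of -5.95 (Bg04-30_K13_568_603), -5.47 (Bg04-21_I17_25_59), -4.82 (Bg04-03_O04_548_586), -4.73 (CL38Contig1_682_716), -4.40 (Bg03-05_F14_546_580), -4.23 (Bg03-08_B06_540_576), -4.19 (CL1389Contig1_154_193), -4.05 (Bg04-22_L19_257_291), -3.96 (Bg04-25_N23_538_576), -3.75 (Bg01-02_M23_150_184), -3.48 (Bg04-09_H20_258_292) and -3.47 (CL943Contig1_42_76). Beyond leaving out each sample in turn, groups of 3 samples were not tested for single outlying samples.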

How the results depend on the processing

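The 176 calls became 72 with median scaling (25.0% higher, in place of 36.9%), 105 among probes detected in all 18 samples (53.3% higher), 93 without the 4 arrays of lowest signal, 57 at an adjusted p under 0.01 and 700 with array weights. Pooling both 0 h groups gave 759 calls (52.4% higher). There the 0 h level cancels, so these are calls for NaCl 24 h minus sorbitol 24 h. The authors' deposited table gave 3, and there the median of all probes shifted by 0.47, because 2 sorbitol 24 h columns are on another scale. Leaving out 1 sample gave 72 to 268. The other settings gave 123 to 256 calls, 250 of them with the foreground median, for which the handling of arrays at 0 was changed after a failed fit had been seen. The labels do not say that the letters A, B and C mark a shared plant or day. Of 18 correlations between the deviations of same-letter samples 11 exceeded 0.1 (range -0.11 to 0.43), and in 21 of 36 comparisons a sample correlated best with its own letter, so these values do not settle whether the letters pair the samples. The replicate letter as a block gave 319 calls for the difference and 116 for NaCl 0 h against sorbitol 0 h (70 without), and kept all 176. NaCl 24 h against sorbitol 24 h had 876 calls, 429 with median scaling (31.9% higher, median shift -0.12), 107 with the deposited table, 529 among probes detected in all 18 samples (58.4% higher) and 490 without the arrays of lowest signal. NaCl 0 h against sorbitol 0 h had 43 with median scaling (9.30% higher, in place of 37.1%, median shift -0.13), 1 with the deposited table and 118 among probes detected in all 18 samples. No probe of the 176 changed sign in any setting that tested it. Of 24 named probes, 16 kept their call in every setting but the deposited table and 3 (CL192Contig1_771_805, Bg04-30_K13_568_603 and Bg04-22_L19_257_291) in every one, with 77 of 724 results losing it and none reversed. With 3 samples a group and 2 arrays of low signal in the sorbitol groups, the size of low-level changes is limited, and the causes of these shifts were not tested beyond the construction named.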

Other observations

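In 4 cases a called probe has a twin on the array with the same 35 bases, and the twin was not called, although its difference had the same sign. Bg03-01_D16_400_434 had -1.86 and its twin Bg04-05_N13_400_434 -2.23 (limma adjusted p = 0.142). Bg04-16_L08_211_245 had -1.77 and Bg04-17_J19_211_245 -1.30 (limma adjusted p = 0.0894). Bg04-24_G04_390_424 had -1.55 and Bg04-04_P17_390_424 -1.31 (limma adjusted p = 0.168). CL805Contig1_486_520 had 1.88 and Bg02-07_B21_486_520 2.12 (limma adjusted p = 0.0802). The twins measure 1 sequence at 2 spots of the same arrays, so a missed threshold does not show that such a response is absent. Bg04-03_O04_548_586 and Bg03-08_B06_540_576, which share 28 bases, were both called and are described above. Another 4 partners share a shorter run than the twins, and none of these was called. CL417Contig1_296_332, with 31 bases of Bg02-10_E22_336_373 (-1.95), had -0.51 (limma adjusted p = 0.476). Bg05-23_J19_328_363, with 34 bases of Bg04-12_B23_380_415 (2.48), had 1.33 (limma adjusted p = 0.0770). Bg03-03_P11_236_270, with 21 bases of CL805Contig1_486_520 (1.88), had 0.15 (limma adjusted p = 0.894). Bg02-08_D17_564_599, with 21 bases of CL273Contig1_562_597 (-3.20), had -2.08 (limma adjusted p = 0.0747). These probes were picked for their shared sequence after the calls had been seen.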
